A study of Danio rerio with 6 samples.

Results

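The 7 vitellogenin genes vtg1 to vtg7 and the estrogen receptor gene esr1 were followed through RNA-seq libraries of adult zebrafish kidney. The 8 genes were found by their zebrafish symbols among the 32266 genes of the deposited tables, each with 1 identifier, and all 8 passed the filter on low counts, as did 18864 genes in all. They were chosen by their levels in these same libraries, which were already known to differ widely between pools, so those levels are a description and support no test. Each library came from a pool of 3 kidneys dissected at about 2.5 months from fish of strain EK. There were 3 pools of wild type fish and 3 pools of their siblings homozygous for the runx1 allele del25 (hg97), called runx1 null here, and the labels name no treatment for either. The labels give no sex for the fish and no record of the dissections. They do not say whether the pools of a genotype came from separate clutches. The spread between pools may also be partly technical, which was not tested.

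Vitellogenins are the precursors of egg yolk. In egg-laying vertebrates the liver of females makes them under the control of estradiol, which acts on the nuclear receptor encoded by esr1, and esr1 itself responds to estradiol. The proteins travel in the blood to the ovary, where growing oocytes take them up. Male livers hold the same receptor and can make vitellogenin when exposed to estrogens, which is why these transcripts serve as a test for estrogenic exposure in fish. In zebrafish, vtg1, vtg4, vtg5, vtg6 and vtg7 belong to the type I vitellogenins, vtg2 is a type II gene, and vtg3 encodes a short form that lacks the phosphate-rich phosvitin domain. In the RefSeq gene order of zebrafish, vtg5, vtg4, vtg6, vtg7 and vtg2 follow each other, and vtg3 lies on another chromosome. There are 2 other coding genes between vtg5 and vtg4 and 0 between the rest. vtg1 was not found under that symbol among the coding genes of the RefSeq list, so its place is not given here. Because the type I genes are close copies of each other, the way the authors' estimated counts divide reads among them is uncertain.

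The libraries held between 16147770 and 30577328 estimated counts. Kidney and blood transcripts were present throughout: the 12 matched kidney genes and the 13 matched blood genes each had a count in every library. The mutated gene runx1 had too few counts to check the genotype labels, with 8, 5 and 7 across the wild type and 0, 5 and 5 across the runx1 null libraries. Wild type pool 1 stood apart, with the lowest summed kidney level, 377 CPM (counts per 1000000 library counts, with libraries scaled by the trimmed mean of M-values, TMM) against 1091 to 2246 in the other pools. Its summed blood level was the highest, at 118137 CPM against 53530 to 74943. Most of that sum was the globin gene hbaa1, at 89785 CPM in wild type pool 1, so the sum is not a level of all blood cells.

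Vitellogenin transcripts were found in all 6 kidney pools, and their level differed by 251-fold between the lowest and the highest pool. Summed over the 7 genes, the wild type pools 1, 2 and 3 held 259, 5021 and 39052 CPM. The runx1 null pools 1, 2 and 3 held 1018, 156 and 4426 CPM. In wild type pool 3 the 7 genes took 4.21% of all counts, and in runx1 null pool 2 they took 0.0168%. The pools of the genotypes overlapped: wild type pool 3 was above all others, wild type pool 1 lay between runx1 null pools 1 and 2, and wild type pool 2 was close to runx1 null pool 3.

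**Figure D1:**
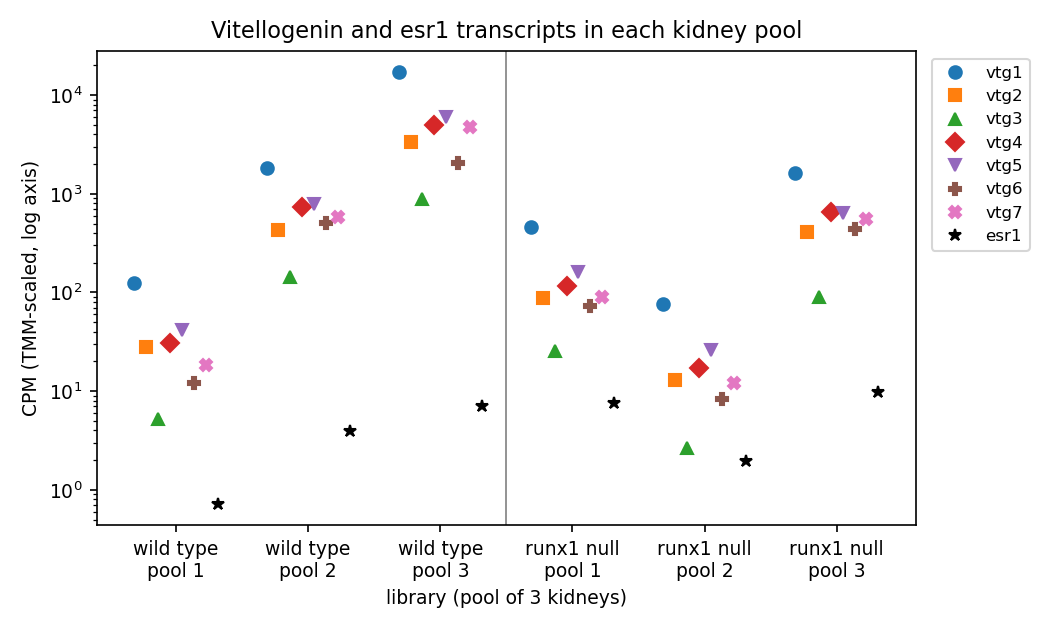
CPM on a log axis of the 7 vitellogenin genes and esr1 (one symbol per gene) in each library, with wild type pools left of the grey line and runx1 null pools right of it. The vitellogenin genes move up and down together, from 2.64 CPM for vtg3 in runx1 null pool 2 to 17029 CPM for vtg1 in wild type pool 3, whereas esr1 stays between 0.722 and 9.85 CPM.

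Every vitellogenin gene had this pattern. vtg1 (ENSDARG00000092233), a type I gene, was at 123, 1842 and 17029 CPM across the wild type pools and at 465, 76.4 and 1639 CPM across the runx1 null pools. vtg2 (ENSDARG00000055809), the type II gene, was at 28.1, 434 and 3378 CPM across the wild type pools and at 88.3, 13.1 and 411 CPM across the runx1 null pools. vtg3 (ENSDARG00000016448), the gene of the form without phosvitin, was at 5.25, 143 and 881 CPM across the wild type pools and at 25.5, 2.64 and 90.7 CPM across the runx1 null pools. In all 3 genes wild type pool 3 was the highest and runx1 null pool 2 the lowest, and the groups overlapped.

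The other type I genes ranked the pools with the same highest and lowest library. vtg4 (ENSDARG00000078429) was at 31.1, 734 and 4962 CPM across wild type and at 116, 17.0 and 651 CPM across runx1 null pools. vtg5 (ENSDARG00000092126) was at 41.3, 786 and 6006 CPM across wild type and at 160.0, 26.01 and 644 CPM across runx1 null pools. For these genes, as for the others, wild type pool 2 stood a little above runx1 null pool 3. vtg6 (ENSDARG00000016825) was at 12.1, 504 and 2056 CPM across wild type and at 73.1, 8.31 and 435 CPM across runx1 null pools. vtg7 (ENSDARG00000092419) was at 18.3, 579 and 4742 CPM across wild type and at 89.8, 12.2 and 555 CPM across runx1 null pools. The ratio of the highest to the lowest pool ran from 223 for vtg1 to 388 for vtg7. A further gene named vtg8, which is not among the 7, had 8 to 124 counts per library.

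For no vitellogenin gene was the difference between genotypes larger than the spread between pools. The mean of vtg1 was 6331 ± 9304 CPM across wild type and 727 ± 814 CPM in the runx1 null group (SD, n = 3 each). In edgeR's quasi-likelihood test over all genes, its log2 fold change, runx1 null against wild type, was -3.12 (SE 1.73, adjusted p 0.811). The log2 fold changes of the other 6 ran from -3.11 for vtg3 to -2.32 for vtg6, and each had an edgeR adjusted p of 0.811. None of the 8 genes was called, against 0% of all genes tested (0 of 18864). At an unadjusted edgeR p under 0.05 there were 0 of the 8 against 5.23% of all genes (987 genes), and the DESeq2 Wald test also called 0 of the 8, against 0.561% (105 genes). The pools of the genotypes were free of overlap for 0 of the 8 genes in CPM, against 12.5% of all genes. The fold changes rested on wild type pool 3: without that pool the log2 fold change of vtg1 was -0.44, and without runx1 null pool 3 it was -4.55.

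The make-up of the vitellogenin counts varied far less than their amount. vtg1 held 47.5%, 36.7% and 43.6% of the counts of the 7 genes in the wild type pools and 45.7%, 49.1% and 37.0% in the runx1 null pools. Its share was thus lowest in wild type pool 2 and runx1 null pool 3. The share of vtg6 was highest in the same pair of pools, at 10.0% in wild type pool 2 and 9.83% in runx1 null pool 3, against 4.66% to 7.18% in the other 4. The share of vtg7 was 11.5% to 12.5% in these pools and in wild type pool 3, and 7.03% to 8.82% in the 3 pools with the least vitellogenin. vtg5 held between 14.5% and 16.7% in every pool, vtg2 between 8.40% and 10.8%, and vtg3 between 1.69% and 2.84%. A share mixes transcript length with level, so only shares of the same gene were set side by side.

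**Figure D2:**
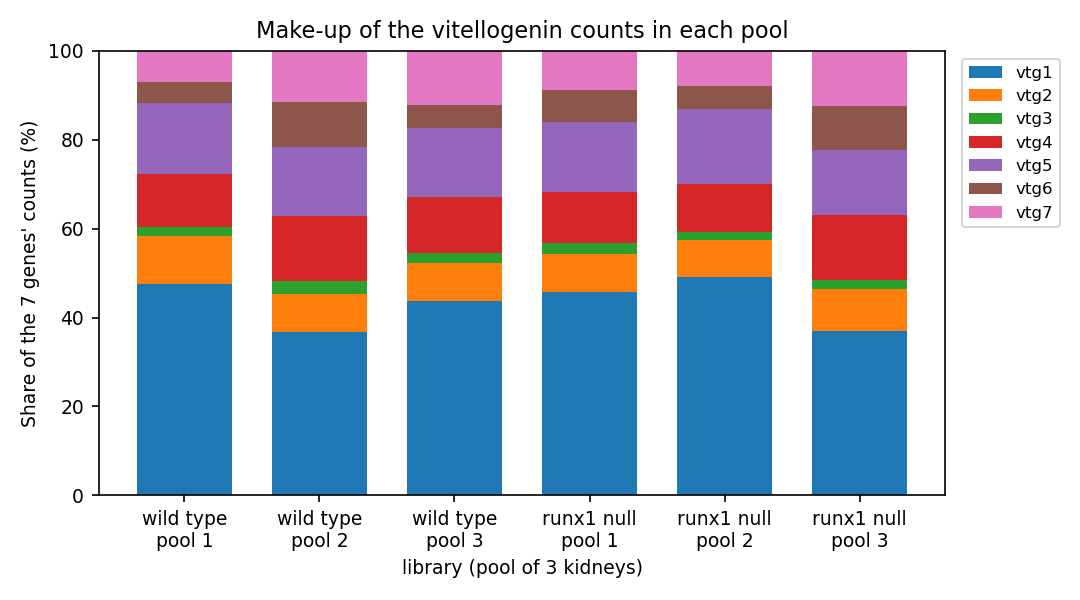
Share of each vitellogenin gene in the summed counts of the 7 genes (stacked bars, percent) in each library. vtg1 holds between 36.7% and 49.1%, and wild type pool 2 and runx1 null pool 3 have the smallest vtg1 and the largest vtg6 shares.

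Liver transcripts differed between the pools as widely as the vitellogenins, in another order. The liver list holds 30 genes of proteins made mainly by hepatocytes, all of which matched and were tested. Summed, they stood at 181, 8325 and 10288 CPM across the wild type pools and at 28413, 2479 and 41610 CPM across the runx1 null pools. The runx1 null pools 3 and 1 were the highest and wild type pool 1 was the lowest. fabp10a, the liver fatty acid binding protein gene, was at 4.86, 244 and 738 CPM across wild type and at 1530, 111 and 1636 CPM across runx1 null pools. tfa, the gene of the iron carrier transferrin, had the highest mean of the list, at 21.6, 1754 and 2399 CPM across wild type and 7086, 661 and 10432 CPM across runx1 null pools. All 30 genes had a positive log2 fold change with a median of 1.71. Over all genes tested, 9045 of 18864 had a positive one and the median was -0.03. The 30 genes share the same libraries and are not independent of each other. Their fold changes lean on wild type pool 1, whose sum was 181 CPM against at least 2479 CPM in any other pool. In edgeR 0 of the 30 were called, and 0 had pools without overlap. In these bulk libraries, fewer liver cells and less RNA per liver cell cannot be told apart.

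Set against liver transcripts of the same library, the vitellogenins were lower in every runx1 null pool than in any wild type pool. The wild type pools 1, 2 and 3 held 1.44, 0.603 and 3.80 vitellogenin counts per count of the liver list. The runx1 null pools 1, 2 and 3 held 0.0358, 0.0628 and 0.106. The nearest pools, wild type pool 2 and runx1 null pool 3, were 5.67-fold apart. The difference of the mean log2 ratios was -4.58 with a pooled SD of 1.09 (n = 3 each), a ratio 23.9-fold lower in runx1 null. Both terms of the ratio entered this difference. The summed vitellogenins alone differed by -2.06 on the log2 scale, with a pooled SD of 3.09 and overlapping pools. The rest of the -4.58, which is the larger part with all pools included, came from the summed liver list in the denominator. Which part was larger depended on wild type pool 1. Without that pool the summed vitellogenins differed by -3.98 and the ratio by -4.61, so the vitellogenins were then the larger part. All 30 liver genes had a positive log2 fold change. Their median of 1.71 is taken over fits of single genes and is not the liver list's part of the -4.58. The ratio is thus not a measure of vitellogenin alone. No test was made of the summed ratio, and an exact two-sided permutation test of 3 against 3 pools could not go below 0.1.

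**Figure D3:**
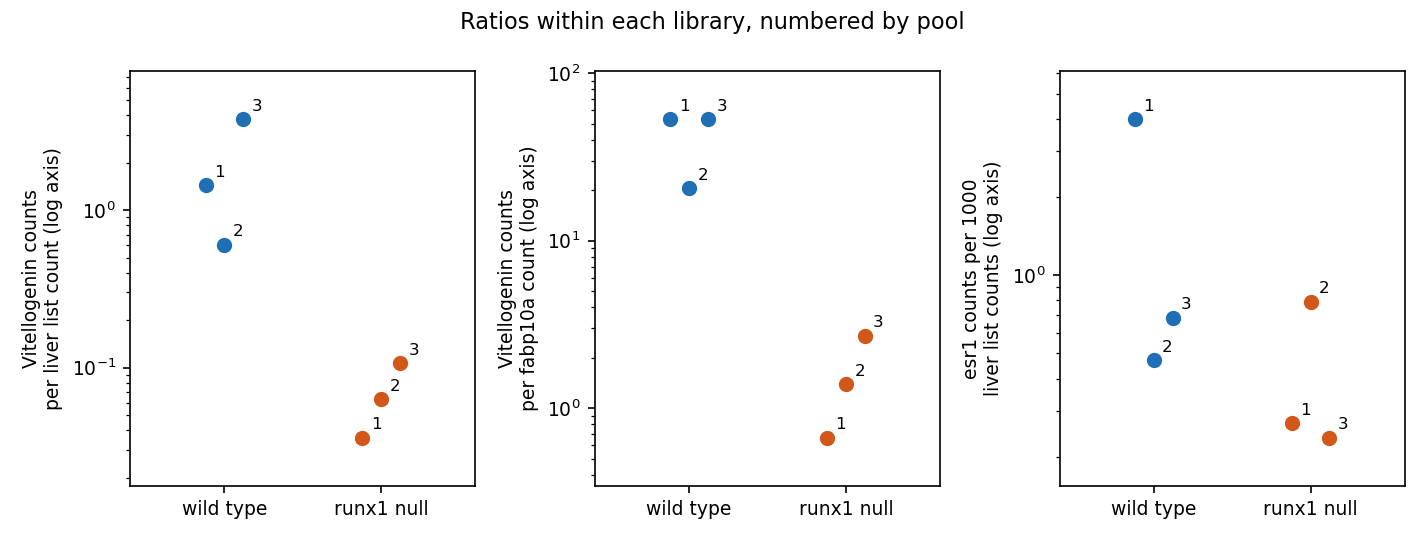
Ratios of counts within each library on log axes, with 1 point per pool and the pool number beside it: vitellogenins per liver list count (left), vitellogenins per fabp10a count (middle) and esr1 per 1000 liver list counts (right). The vitellogenin ratios of the wild type pools, 0.603 to 3.80 per liver list count, lie above those of the runx1 null pools, 0.0358 to 0.106, and the esr1 ratios overlap.

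The separation held for each vitellogenin gene. Per 1000 liver list counts, vtg1 had 682, 221 and 1655 counts in the wild type pools and 16.4, 30.8 and 39.4 in the runx1 null pools. vtg3 had 29.0, 17.1 and 85.6 counts in the wild type pools and 0.898, 1.06 and 2.18 in the runx1 null pools. All 7 vitellogenins were lower in runx1 null without overlap, against 2.70% of all genes tested (509 of 18864) for the same ratio and direction; 0 of the 7 were higher, against 0.0265%. The 7 genes share the same libraries and the same denominator and are not independent of each other. Of the 30 liver genes, each divided by the rest of the list, 3 were lower without overlap and 1 was higher. Of 21 tested oocyte genes, 14 were lower per liver count without overlap, so the separation was shared with part of the oocyte list. This tally, like those of the vitellogenins and of all genes, added 0.5 to both terms of the ratio. Without the 0.5, gdf9, btg4 and zp3d.2 overlapped, with 0, 1 and 1 counts in wild type pool 1. The whole oocyte list held 133 counts in that pool, so its separation rests on few counts there.

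The ratio was also taken against single liver genes. Against fabp10a alone it was 53.3, 20.5 and 52.9 in the wild type pools and 0.665, 1.40 and 2.71 in the runx1 null pools. With each of the 30 liver genes in turn as the denominator, a comparison added after the values were seen, 28 left the wild type pools above all runx1 null pools. The exceptions were rbp4, the gene of the plasma retinol carrier, and hamp, the gene of the iron hormone hepcidin. The 30 ratios, here and for other genes below, share their numerator and are not independent of each other. Some denominators were also small in wild type pool 1, such as itih3a with 8 counts. rbp4 made up 47.0% of the liver list counts in wild type pool 1 and 1.20% to 9.07% elsewhere. Without rbp4 the ratio of that pool was 2.71 instead of 1.44. Without wild type pool 1 the difference of the mean log2 ratios was -4.61, without wild type pool 2 it was -5.23 and without wild type pool 3 it was -3.91.

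**Figure D4:**
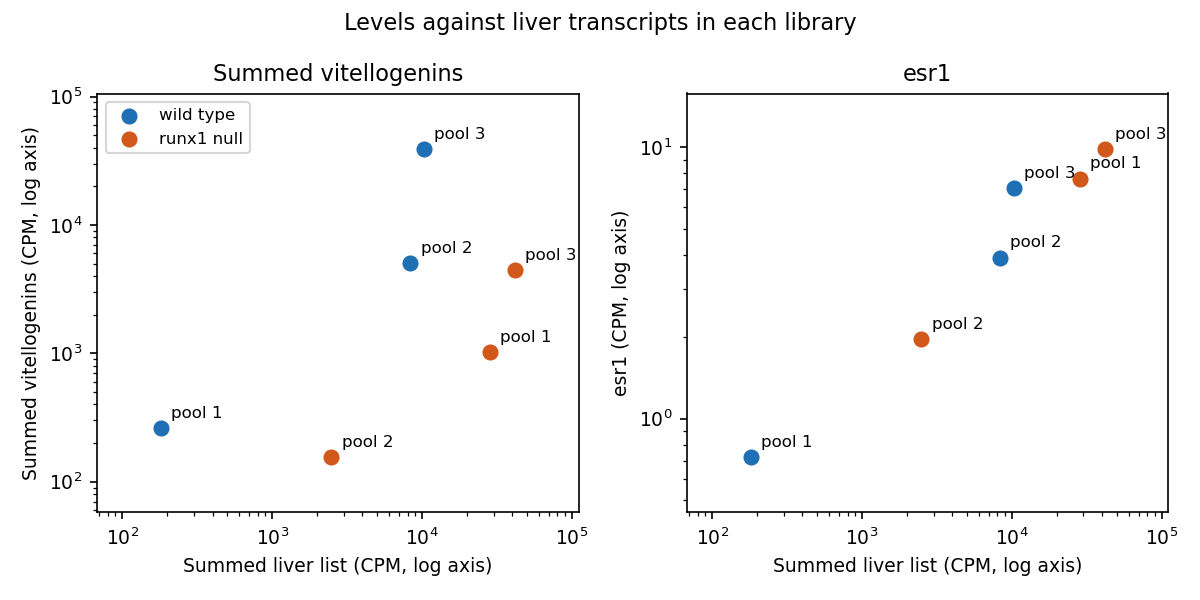
Summed vitellogenins (left) and esr1 (right) in CPM against the summed liver list in CPM, all on log axes, with 1 point per library, wild type in blue and runx1 null in orange. On the left wild type pool 1 lies above runx1 null pool 2, and wild type pools 2 and 3 lie above runx1 null pools 1 and 3, each at a lower liver level; on the right the order of the pools is the same on both axes.

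esr1 (ENSDARG00000004111), the receptor gene, ranked the pools as the liver list did and not as the vitellogenins did. Its level was 0.722, 3.91 and 7.07 CPM across the wild type pools, from 15, 99 and 233 counts. In the runx1 null pools it was at 7.65, 1.96 and 9.85 CPM, from 128, 58 and 266 counts. The order from high to low was runx1 null pool 3, runx1 null pool 1, wild type pool 3, wild type pool 2, runx1 null pool 2 and wild type pool 1, which is the order of the summed liver list. Only the order was shared, since the highest and lowest pools were 13.6-fold apart for esr1 and 230-fold apart for the liver list. The mean was 3.90 ± 3.18 CPM across wild type and 6.49 ± 4.07 CPM in the runx1 null group (SD, n = 3 each), and the fitted log2 fold change was 0.73 with an SE of 0.87 (edgeR adjusted p 0.836). The groups overlapped.

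Per liver transcript, esr1 was not separated by genotype. It had 3.996, 0.470 and 0.687 counts per 1000 liver list counts in the wild type pools and 0.269, 0.790 and 0.237 in the runx1 null pools. The high value of wild type pool 1 rests on 15 esr1 counts over a small liver sum, 3754 counts against 73377 to 1123753 in the other pools. Of the 30 liver genes taken singly as the denominator, 28 gave ratios that overlapped between the genotypes. The number of vitellogenin counts per esr1 count was 359, 1284 and 5521 in the wild type pools and 133, 79.4 and 449 in the runx1 null pools. These overlapped too, since wild type pool 1 lay below runx1 null pool 3.

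Oocyte transcripts did not follow the vitellogenins in every pool. The oocyte list has 25 genes, of which 22 matched and 21 were tested. They summed to 6.41, 379 and 1716 CPM across the wild type pools and to 5.92, 47.5 and 546 CPM across the runx1 null pools. The pools with the most vitellogenin, wild type pools 3 and 2 and runx1 null pool 3, were also the 3 with the most oocyte transcripts. Wild type pool 1 and runx1 null pool 1 had the least oocyte transcripts, yet both held more vitellogenin than runx1 null pool 2. The number of vitellogenin counts per oocyte count was 40.5, 13.3 and 22.8 in the wild type pools and 172, 3.28 and 8.11 in the runx1 null pools.

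**Figure D5:**
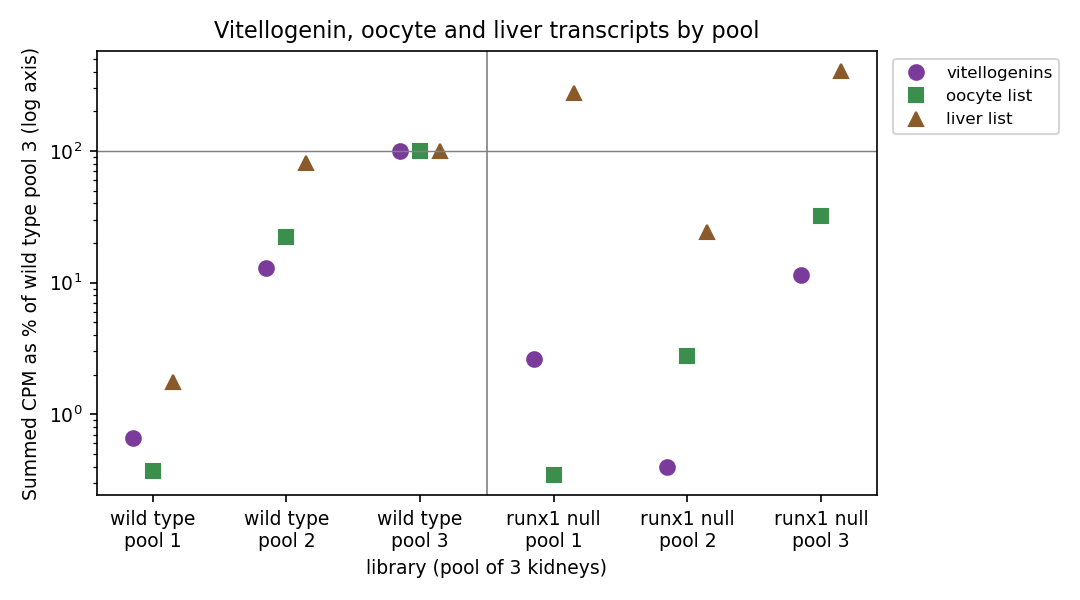
Summed CPM of the vitellogenins, the oocyte list and the liver list in each library as a percentage of wild type pool 3, on a log axis. runx1 null pool 1 has liver transcripts at 276%, vitellogenins at 2.61% and oocyte transcripts at 0.345% of wild type pool 3.

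Single egg genes showed the same. zp2.1, a gene of the egg coat, was at 0, 63.7 and 283 CPM across the wild type pools and at 0, 4.83 and 95.0 CPM across the runx1 null pools. The 0 counts in wild type pool 1 and runx1 null pool 1 allow a level of up to 0.144 and 0.179 CPM (3 counts, counting error only). In wild type pool 1, vtg1 thus stood at 0.724% of its level in wild type pool 3, while zp2.1 had 0 counts against 9322 there. zp2.1 is an extreme case, since the summed oocyte list of wild type pool 1 stood at 0.373% of its level in wild type pool 3. buc, which is needed for the polarity of the oocyte, was at 0.482, 23.1 and 168 CPM across wild type and 0.418, 1.22 and 26.6 CPM across runx1 null pools. zp3b, another egg coat gene, was at 0.578, 35.6 and 190 CPM across wild type and 0.359, 4.93 and 56.8 CPM across runx1 null pools. Of the 21 tested genes 20 had a negative log2 fold change with a median of -1.90, and 0 were called in edgeR. Over all genes tested, 9819 of 18864 had a negative one. The oocyte genes share the same libraries and are not independent of each other. Their sum was 1716 CPM in wild type pool 3 and at most 546 CPM in any other pool, so these fold changes lean on that pool. In the 2 pools with the least oocyte transcripts, zar1 gave 73 of 133 and 31 of 99 oocyte list counts, so the summed levels there rest in good part on that gene.

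Markers of the somatic ovary and of the testis were low in all pools. Summed, the 7 matched ovary somatic genes stood at 1.73, 4.66 and 16.0 CPM across the wild type pools and 11.6, 8.41 and 8.998 CPM across the runx1 null pools. Of the 7 genes 2 passed the filter on low counts, and 1 of them, rspo1, gave 4.34 CPM of the sum in wild type pool 2, 13.4 in wild type pool 3, and 7.05, 7.91 and 7.81 in the runx1 null pools. cyp19a1a, the gonadal aromatase gene that makes estradiol from androgens, had 44 counts in runx1 null pool 1 and 0 to 5 in the other pools. It did not pass the filter on low counts. The 11 matched testis genes summed to between 6.16 CPM in wild type pool 1 and 40.6 CPM in runx1 null pool 1. There cyp11c1, which also acts in the steroid synthesis of the interrenal gland, gave 31.3 CPM. Whether the pools differed in the sex or maturity of their fish cannot be told apart from how much liver and ovary went along with the kidneys, and the part of either in the vitellogenin levels was not tested.

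Among the genes of yolk provision and uptake, nots was examined first. It encodes nothepsin, a protease of the female liver in zebrafish. nots was at 1.25, 7.70 and 54.8 CPM across the wild type pools and at 1.02, 0.338 and 5.04 CPM across the runx1 null pools. Like the vitellogenins, it was highest in wild type pool 3 and lowest in runx1 null pool 2, but it was slightly higher in wild type pool 1 than in runx1 null pool 1, where the vitellogenins had the opposite order. Its log2 fold change was -3.31 with an SE of 1.499 (edgeR adjusted p 0.811). Per 1000 liver list counts nots had 6.93, 0.925 and 5.33 counts across wild type and 0.0358, 0.136 and 0.121 across runx1 null pools, again without overlap. With single liver genes as the denominator 29 of 30 kept the genotypes apart. The runx1 null pools held 17, 10 and 136 nots counts.

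The receptors that take up yolk proteins had other orders. vldlr, which encodes a lipoprotein receptor that binds vitellogenin in oocytes, was at 6.89, 20.3 and 75.7 CPM across wild type and at 10.3, 9.93 and 24.7 CPM across runx1 null pools. lrp13, a related receptor gene of the ovary, was at 0.144, 18.6 and 124 CPM across wild type and 0.239, 3.55 and 27.5 CPM across runx1 null pools. It was near its lowest in wild type pool 1 and runx1 null pool 1, as the oocyte genes were. ctsla, ctsd and ctsba, which encode lysosomal proteases, were present in every pool at 138 to 722 CPM. Over the 11 tested genes of this list the median log2 fold change was 0.06, with 6 higher, 5 lower and 0 called in edgeR.

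The remaining genes of sex steroid signalling mostly stayed within a narrower range. Of 24 listed genes 20 matched and 18 were tested, with a median log2 fold change of 0.54, 13 higher, 5 lower and 0 called in edgeR. esr2a, esr2b and cyp19a1b were not analysed here. ar, the androgen receptor gene, was at 53.7, 25.0 and 23.3 CPM across the wild type pools and at 10.5, 12.3 and 19.7 CPM across the runx1 null pools. All its wild type pools were above the runx1 null pools, but its log2 fold change of -1.26 (SE 0.43) had an edgeR adjusted p of 0.811. nr2f2, which encodes an orphan nuclear receptor, was separated the other way, at 2.36, 14.3 and 12.5 CPM across wild type and 25.2, 14.5 and 24.3 CPM across runx1 null pools. The gap for nr2f2 was narrow, with 14.26 CPM in wild type pool 2 and 14.53 CPM in runx1 null pool 2, from 361 and 430 counts. ar and nr2f2 were the only 2 of the 18 tested genes without overlap, against 12.5% of all genes. pgr, the progesterone receptor gene, lay between 0.289 and 1.41 CPM, and gper1, the gene of a membrane estrogen receptor, had no more than 1 count in a library.

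shbg, whose product carries sex steroids in plasma and is made in the liver, behaved like a general liver gene. It was at 0.482, 45.7 and 67.5 CPM across wild type and at 167, 15.4 and 242 CPM across runx1 null pools. Per 1000 liver list counts it stood at 2.66, 5.49 and 6.57 across wild type and at 5.89, 6.20 and 5.82 across runx1 null pools, and these overlapped. The corepressor gene ncor1 and the coactivator genes ncoa2 and ncoa3 were at 27.6 to 334 CPM in all pools, and none was called in edgeR.

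Genes with the most similar profile differed between the vitellogenins and the receptor. Likeness was measured as the mean absolute difference of centred log2 CPM over the 6 libraries, among 14070 named genes whose log2 CPM averaged 1 or more. The nearest to the summed vitellogenins were si:ch73-90k17.1, caprin2, patl2, nanog and si:ch211-145c1.1, at distances of 0.63 to 0.71 log2 units. nanog, a regulator of early embryonic cells whose RNA is stored in the egg, was at 0, 8.45 and 40.1 CPM across the wild type pools and at 0.0598, 0.0338 and 8.29 CPM across the runx1 null pools. In wild type pool 1 and runx1 null pools 1 and 2 the 5 nearest genes were at 0 to 1.11 CPM. The summed vitellogenins held 259, 1018 and 156 CPM there. The likeness in these pools thus depends on the 0.5 CPM added before the log. The nearest to esr1, with symbols as the name table writes them, were AGMO, AKT2, ildr1b, MASP1 and DHRS9, at 0.11 to 0.16 log2 units. AGMO, the gene of an enzyme that cleaves ether lipids, was at 0.482, 3.71 and 6.16 CPM across wild type and 5.92, 1.69 and 7.29 CPM across runx1 null pools.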

How the data were processed

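The authors deposited 1 table per library, whose values were taken to be expected counts (estimated counts per gene) that had not been scaled, since the column totals differ; between 12.7% and 14.9% of the nonzero values were not whole. Per the submitters' processing notes, STAR 2.5.26, RSEM, DESeq2 and build GRCz10 were used, with no role given for each; the annotation and the use of strand were not given in the sources used here. Expected counts were rounded to whole numbers because the tests need them. Names came from a gene table that gave symbols for 26433 of 32266 identifiers, and otherwise from unique synonyms in RefSeq's list for GRCz12tu, which was used for names and gene order only. The fit was edgeR 4.0.16 in R 4.3.3 (quasi-likelihood test, TMM, filterByExpr with a minimum count of 10, genotype as the sole term), adjusted by Benjamini-Hochberg over all genes at 0.05. It was also tested on simulated data that held only large planted changes, so that test does not cover small ones. An SE is the size of the log2 fold change divided by the square root of F. CPM use the TMM library sizes; log2 CPM for likeness and for summed levels add 0.5. Ratios divide rounded counts within a library. For the tallies of vitellogenins, oocyte genes and all genes without overlap in the ratio to the liver list, 0.5 was added to both terms. Library totals of 16147770 to 30577328 set the precision, and pools of 3 kidneys, not reads, limit it. DESeq2 1.42.0, other scalings, no filter, the replicate number as a block and leaving out each library were alternatives. The named genes were the 8 genes, 12 preset genes, up to 4 of the highest per list and the 5 nearest by likeness to each of the vitellogenins and esr1. Further genes were named after their values were seen: buc, lrp13, shbg, zar1, rbp4, hamp, cyp11c1, vtg8, nr2f2, gdf9, btg4, zp3d.2 and itih3a. The members and lists were chosen with earlier results of these data known. No sequences were used here, so no promoter motif was searched.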

Additional observations from a re-analysis of the deposited data

How the results depend on the processing

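For the 7 vitellogenins and esr1, all 11 alternatives each kept the direction and the side of the threshold. The threshold says little here, since edgeR called 0 genes in the main fit and in each of its alternatives. The size of the fold changes was not kept. Leaving out one library moved the log2 fold changes from -4.55 to -0.44 for vtg1, -4.66 to -0.44 for vtg2, -4.61 to -0.90 for vtg3, -4.84 to -0.55 for vtg4, -4.62 to -0.59 for vtg5, -4.40 to -0.59 for vtg6, -5.13 to -0.45 for vtg7 and 0.23 to 1.47 for esr1. The summed vitellogenin level differed by -2.06 on the log2 scale with a pooled SD of 3.09, and by -3.98 to -0.36 across these omissions, with the smallest difference without wild type pool 3. The difference of the vitellogenin to liver ratio, -4.58, ran from -5.23 to -3.91 across the same omissions and was -4.46 without tfa, -4.83 against fabp10a, -4.30 from mean log2 CPM and -4.87 without rbp4, the last chosen after seeing the data. The DESeq2 Wald test called 105 genes, none of the 8, where edgeR called 0 with 987 at an unadjusted p under 0.05; the cause was not tested. The pool number pairs no fish between genotypes, and the deviations of pools with the same number correlated at 0.06, -0.39 and 0.46. With the replicate block, 0 genes passed, and the log2 fold changes were -2.51 for vtg1 and 0.84 for esr1. The lowest values rest on few counts: esr1 had 15 counts in wild type pool 1, and the oocyte list had 133 there and 99 in runx1 null pool 1.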

Other observations

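Among the yolk and lipid transport genes, apoea, an apolipoprotein E gene, was chosen after its values were seen. It stood at 1423 CPM in runx1 null pool 3 and at 1.06 to 15.7 CPM in the other 5 pools. Its paralog apoeb was highest in runx1 null pool 2, at 1066 CPM, followed by runx1 null pool 3 at 576 CPM, and was at 76.3 to 287 CPM in the other 4. Neither followed the vitellogenins or the liver list, and neither was called in edgeR.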
